A study of Mus musculus with 50 samples.

Results

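The hearts of 12-month-old FVB mice were compared with those of 10-month-old FVB mice, 5 mice against 5, chosen by the sample titles from the 50 mice of the study. RNA was taken from the apex of the left ventricle of female wild-type animals of the inbred strain FVB, which were fed standard chow and received no treatment. The study followed cardiac ageing in FVB mice and the development of heart failure in Tgαq*44 mice, which have the FVB background and carry an activated Gαq, a G-protein subunit that signals to phospholipase C, in their cardiomyocytes. Both strains were sampled at 4, 8, 10, 12 and 14 months. The 5 Tgαq*44 mice of 10 months and the 5 of 12 months are used here to test the difference between the strains. Levels and changes in Tgαq*44 mice are also set beside those of FVB mice, and all 50 mice entered the fit behind the calls. The labels give each library as a separate mouse and do not say whether the mice shared a litter or cage, and neither the sequencing run of a library nor the hour at which a heart was taken is stated. Age and any difference in run or hour therefore cannot be told apart.

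Cardiomyocytes have a circadian clock of their own. In it, BMAL1 (the product of Arntl) pairs with CLOCK or NPAS2 on E-boxes and switches on the Per and Cry repressors, the nuclear receptors Nr1d1 and Nr1d2, Ciart and the PAR-bZIP factors Dbp, Tef and Hlf, which act through D-boxes. The heart takes most of its energy from fatty acids, and PPARα, a nuclear receptor that is activated by them, controls the genes of their uptake and oxidation. Both systems are known to set the daily and nutritional programme of the myocardium, and members of both differed between the ages. Levels are given in CPM, the counts of a gene scaled to a common library total (TMM scaling). A gene was called when its adjusted p in edgeR's quasi-likelihood test was under 0.05 over all 15129 genes tested, and it was counted as a differentially expressed gene (DEG) when its log2 fold change also exceeded 1 in size.

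The clock list had more called members than any other of the 54 gene lists. Of its 21 members, all tested, 2 rose (Arntl and Npas2) and 8 fell (Cry2, Hlf, Tef, Per3, Dbp, Ciart, Csnk1d and Per1), where 4.96% of all genes were called higher and 2.88% lower. The median log2 fold change of the list was -0.47, and that of all genes tested was -0.006. Promoters of 4 of these genes are shown because they differ in E-boxes and D-boxes. Ciart and Tef fell and hold the E-box CACGTG, and Per3 fell and holds D-boxes (TTATGTAA or TTACATAA). Arntl rose and holds neither in either of its 2 windows. Elements through which other clock factors act were not searched for. Each line is 1 RefSeq promoter window of 300 bases around the start of the gene (GRCm38.p6), 5′ to 3′ on the strand of the gene, with E-boxes and D-boxes in capitals.
Ciart: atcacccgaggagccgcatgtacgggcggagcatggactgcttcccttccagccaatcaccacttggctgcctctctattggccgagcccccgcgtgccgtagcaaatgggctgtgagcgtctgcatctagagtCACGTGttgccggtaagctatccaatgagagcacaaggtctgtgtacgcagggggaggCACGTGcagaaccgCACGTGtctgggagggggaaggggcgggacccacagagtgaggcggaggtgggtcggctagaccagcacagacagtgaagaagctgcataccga
Per3: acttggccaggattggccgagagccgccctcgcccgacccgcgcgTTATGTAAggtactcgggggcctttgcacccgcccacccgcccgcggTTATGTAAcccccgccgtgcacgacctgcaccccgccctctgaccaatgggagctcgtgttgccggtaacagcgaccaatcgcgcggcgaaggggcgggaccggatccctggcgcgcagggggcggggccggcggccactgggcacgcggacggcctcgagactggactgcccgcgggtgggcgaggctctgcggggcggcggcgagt
Tef: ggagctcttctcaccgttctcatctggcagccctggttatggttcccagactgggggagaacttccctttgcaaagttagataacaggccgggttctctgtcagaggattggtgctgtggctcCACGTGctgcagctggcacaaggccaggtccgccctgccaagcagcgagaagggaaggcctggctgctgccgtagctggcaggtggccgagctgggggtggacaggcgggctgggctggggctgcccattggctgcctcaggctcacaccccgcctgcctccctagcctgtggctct
Arntl: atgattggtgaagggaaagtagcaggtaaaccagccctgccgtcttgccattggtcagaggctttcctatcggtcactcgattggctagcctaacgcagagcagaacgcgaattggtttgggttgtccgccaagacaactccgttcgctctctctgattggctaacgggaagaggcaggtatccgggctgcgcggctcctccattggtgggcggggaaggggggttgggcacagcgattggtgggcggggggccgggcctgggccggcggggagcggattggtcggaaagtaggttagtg
The Ciart window lies at chr3:95882179-95882478 on the minus strand and holds 3 E-boxes. The Per3 window, at chr4:151044616-151044915 on the minus strand, holds 2 D-boxes. The Tef window, at chr15:81802423-81802722 on the plus strand, holds 1 E-box, and the Arntl window lies at chr7:113207215-113207514 on the plus strand. Of the 17 clock genes with a window, 5 held an E-box on either strand in at least 1 window (Per1, Cry1, Tef, Ciart and Bhlhe41) and 1 held a D-box, while 7.15% of all 32851 windows held an E-box and 0.938% a D-box. The windows of Cry2, Dbp, Hlf and Npas2, which were also called, held no E-box and no D-box.

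Arntl, the activator of the clock, was at 6.28, 10.4, 8.69, 12.5 and 15.1 CPM in the 10-month mice 1 to 5 and at 27.2, 27.8, 24.8, 30.8 and 26.9 CPM in the 12-month mice 1 to 5. The groups did not overlap, and the mean rose from 10.6 ± 3.38 to 27.5 ± 2.17 CPM (SD, n = 5), a 2.6-fold increase (log2 fold change 1.38, standard error 0.28, adjusted p = 0.00095 from edgeR). Npas2, the partner of BMAL1 in place of CLOCK, rose with it without overlap, from 4.46 to 9.13 CPM in the younger and 13.7 to 19.9 CPM in the older mice (log2 fold change 1.31, adjusted p = 0.0036). Clock itself was at 15.0 to 21.8 and 18.7 to 28.5 CPM and did not pass the test (log2 fold change 0.42, adjusted p = 0.069).

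Among the repressors, Cry2 was at 78.5, 89.4, 85.1, 61.9 and 80.1 CPM at 10 months and at 40.1, 39.7, 44.7, 48.7 and 45.4 CPM at 12 months. It was lower in each of the 5 older mice than in any younger mouse and fell by 0.85 on the log2 scale (standard error 0.12, adjusted p = 6.3e-06). Ciart, which represses BMAL1 activity, was at 9.95 to 14.1 CPM against 3.12 to 5.06 CPM, a 2.71-fold lower level (log2 fold change -1.44, adjusted p = 0.0035). Per3 fell from 34.5 to 52.5 CPM to 17.3 to 26.7 CPM (log2 fold change -0.97, adjusted p = 0.0032). Per1 fell with overlapping groups (50.1 to 111 against 23.9 to 57.1 CPM, log2 fold change -1.13, adjusted p = 0.026), and this call was lost without any one of 10-month mice 3 and 5 or 12-month mice 1, 2, 3 and 5. Per2 was lower without overlap, at 21.2 to 31.7 CPM against 10.8 to 21.2 CPM (the edges differ before rounding), but did not pass the test (log2 fold change -0.84, adjusted p = 0.12).

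The 3 PAR-bZIP factors fell together and without overlap between the groups. Dbp was at 52.2, 75.1, 74.2, 54.4 and 42.1 CPM in the younger mice and at 19.9, 19.1, 22.5, 18.7 and 31.5 CPM in the older ones (log2 fold change -1.42, standard error 0.32, adjusted p = 0.0032). Hlf went from 26.5 to 34.7 CPM to 13.2 to 17.3 CPM (log2 fold change -0.96, adjusted p = 0.00067) and Tef from 147 to 223 CPM to 87.5 to 131 CPM (log2 fold change -0.77, adjusted p = 0.001). Csnk1d, a kinase that acts on the PER proteins, had a log2 fold change of -0.32 (adjusted p = 0.015, and 0.11 without 10-month mouse 5). Nr1d1, the repressor of Arntl, was at 120 to 155 CPM in the younger mice and at 61.7, 56.3, 68.7, 86.5 and 232 CPM in the older ones. Mouse 5 thus lay above all others, and Nr1d1 passed the test only without it (log2 fold change -0.47, adjusted p = 0.38 with all mice, and -1.04, adjusted p = 0.0069 without mouse 5). Without mouse 5, 2 clock genes were called higher and 10 lower. The clock members Npas2, Csnk1d, Per2, Clock and Nr1d1 were named after their values were seen.

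**Figure D1:**
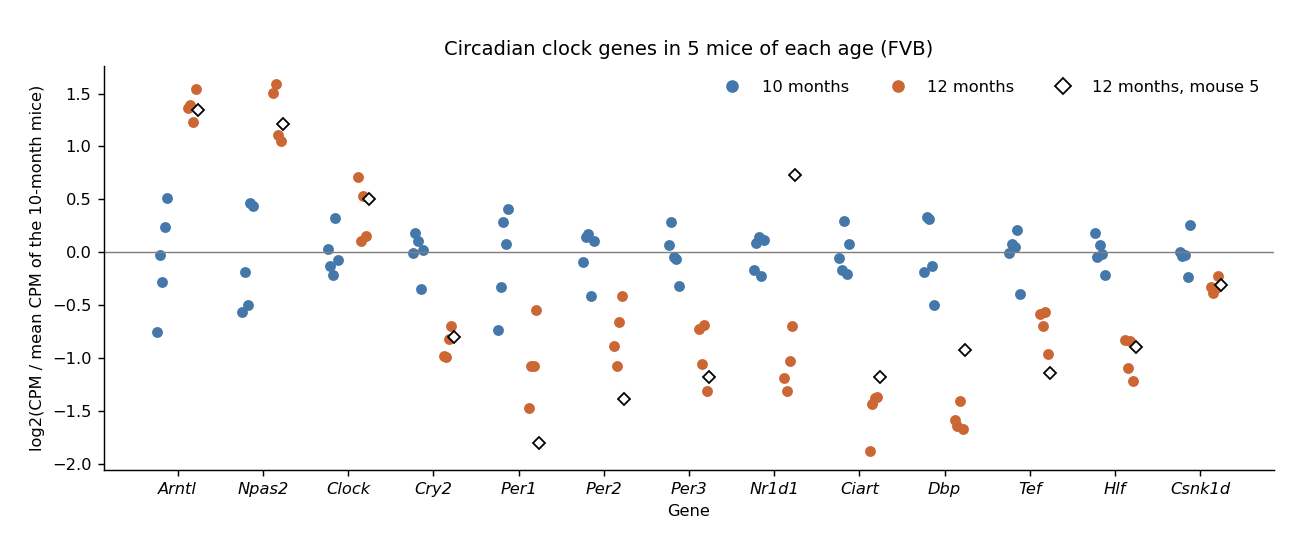
Level of 13 clock genes in each FVB mouse, as log2 of its CPM over the mean CPM of the 10-month mice (vertical axis), for 5 mice of 10 and 5 of 12 months, with 12-month mouse 5 as an open diamond. Arntl and Npas2 lie higher and Cry2, Ciart, Dbp, Tef and Hlf lower in all 5 older mice, and Nr1d1 is the gene in which mouse 5 departs from the other 4.

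The change from 10 to 12 months differed between the strains for 6 of the 21 clock genes, where 0.562% of all genes had a change in FVB above that in Tgαq*44 mice and 0.701% one below it (85 and 106 genes). Cry2 had a log2 fold change of 0.30 in Tgαq*44 mice, and the difference of the FVB change from it was -1.15 (standard error 0.17, adjusted p = 1e-04). The difference was 1.6 for Arntl (adjusted p = 0.022), 1.74 for Npas2 (adjusted p = 0.021) and -1.08 for Tef (adjusted p = 0.0052). In Tgαq*44 mice Arntl was at 27.2 ± 13.4 CPM (mean ± SD, range 13.7 to 49.5 CPM) at 10 and 23.2 ± 3.53 CPM at 12 months. Tef was at 101 ± 27.5 and 126 ± 16.4 CPM in these mice. Per3 and Hlf differed by -1.24 and -1.06 (adjusted p = 0.031 and 0.033). The former was not called without any one of 10-month mouse 2 and 12-month mice 2 and 4, and the latter not without any one of 10-month mice 1, 2 and 3 and 12-month mice 2 and 4. In FVB mice of other ages, mean Arntl was 8.55 CPM at 4, 15.1 CPM at 8 and 18.4 CPM at 14 months. The 12-month group, at 27.5 CPM, had the highest mean, and its range lay above that of the 4-, 10- and 14-month mice but not of the 8-month mice (9.93 to 26.1 CPM). Mean Cry2 was 67.1, 57.9 and 52.0 CPM at 4, 8 and 14 months.

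Over all genes, 150 DEGs were higher at 12 months (0.991% of the genes tested) and 46 lower (0.304%), and 74 of these 196 DEGs were predicted genes or clones. With no minimum fold, 750 genes were called higher (4.96%) and 435 lower (2.88%), the shares beside which the counts of called list members are to be read. The ranges of the 5 younger and 5 older mice did not overlap for 351 genes that were higher (2.32%) and 280 that were lower (1.85%). The library of 12-month mouse 5 stood apart. On the first principal component of the 10 libraries, which held 29.3% of the variance, it lay at -15.1, among the 10-month mice (-38.7 to 0.6) and away from the other 12-month mice (7.3 to 34.5). Of the 750 genes called higher, its level was within the range of the 10-month mice for 439, against 19 to 46 genes for each of the other 4 mice. Of the 435 called lower, this was so for 202 genes, against 19 to 78. Without mouse 5, there were 231 DEGs higher (1.53%) and 80 lower (0.529%), of which 147 and 35 were among those with all mice, and 1051 genes were called higher (6.95%) and 734 lower (4.85%).

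**Figure D2:**
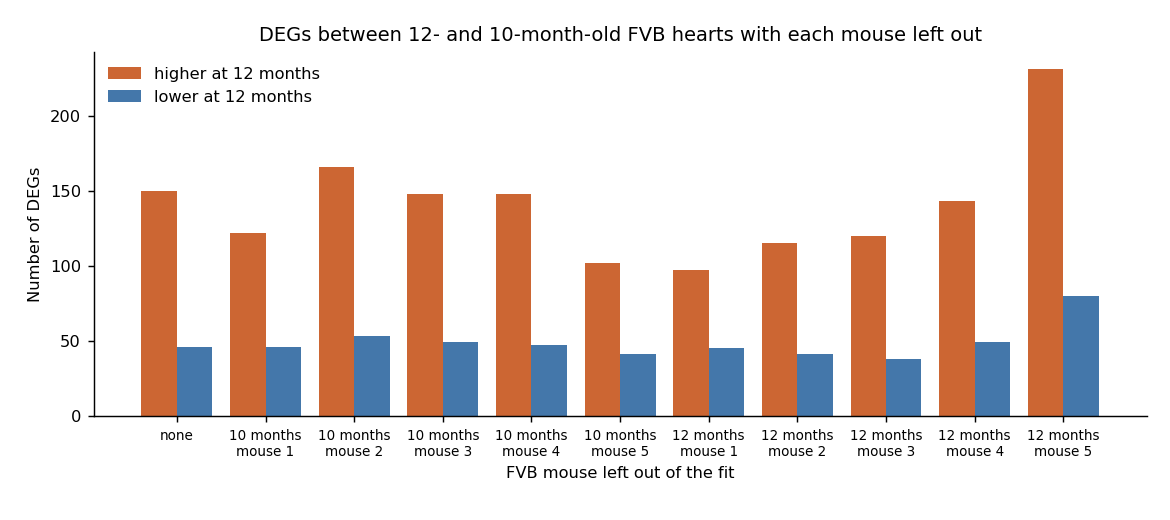
Number of DEGs (vertical axis) higher and lower at 12 months with all 10 mice and with each mouse left out of the fit (horizontal axis). The count of higher DEGs is 150 with all mice, 231 without 12-month mouse 5 and between 97 and 166 without any other mouse, and that of lower DEGs is 46, 80 and between 38 and 53.

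The total count was 12.4 to 17.6 M reads in these 10 libraries, within the range of the whole series (8.77 to 21.6 M). Mitochondrially encoded genes held 19.2 to 27.6% of counts, and mouse 5 was inside the range of the others in both (13.2 M and 24.5%). TMM factors were 0.911 to 0.950 in the 10-month mice, 0.972 to 1.018 in 12-month mice 1 to 4 and 0.914 in mouse 5. Genes detected numbered 20939 to 22189, 21488 to 22508 and 20965 in the same order. The part of what these measures reflect in the calls was not tested. The cardiac origin of the tissue was clear from its defining genes: the 12 markers of ventricular cardiomyocytes summed to 68300 to 77000 CPM at 10 and 66900 to 89900 CPM at 12 months, and none was called. Of the atrial markers, Myl7 and Sln did not reach the minimum level. Of 147 marker genes of 20 cell types that were tested, 5 were called with all mice and 10 without mouse 5. The shares of all genes were 4.96% called higher and 2.88% lower, and 6.95% and 4.85% without mouse 5. Mouse 5 had the highest summed level of the ventricular markers (89900 CPM), of activated fibroblast markers (475 CPM, against 206 to 304 CPM at 10 months) and of erythroid and platelet markers (1330 CPM, against 350 to 790 CPM). The part of these in its profile was not tested. The gene sets that rose and fell differed in transcript length: the longest transcript of the genes called higher had a median of 5804 bases and that of the genes called lower 2810, against 3248 for all genes tested. Over 13242 genes, the deviation of a library from the mean of the 10 libraries was correlated with length by a Spearman coefficient of -0.27 to 0.09 in the 10-month mice, of 0.03 to 0.30 in 12-month mice 1 to 4 and of -0.12 in mouse 5. With GC content the coefficient was -0.42 to 0.48 in the 10-month and -0.43 to 0.49 in the 12-month mice. Median GC content was 49.6% for the genes called higher and 53.5% for those called lower, against 49.9% for all tested. The libraries lowest and highest on the first principal component (-38.7 and 34.5) also had the lowest and highest coefficient with length. From the lowest to the highest library on this component, the coefficients were -0.27, -0.22, -0.12 (12-month mouse 5), -0.14, -0.17, 0.09, 0.03, 0.19, 0.28 and 0.30. The part of length in this component was not tested. These are descriptions across genes that share libraries. The part of transcript length in the counts of calls was not tested beyond refitting with offsets for GC content and length, after which 743 genes were called higher and 644 lower (750 and 435 without offsets) and 145 DEGs were higher and 40 lower.

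The gene with the lowest adjusted p was Hipk2, a nuclear kinase that acts in p53 and Wnt signalling. It was at 34.9, 54.3, 43.5, 47.6 and 43.9 CPM in 10-month mice 1 to 5 and at 220, 205, 199, 211 and 48.2 CPM in 12-month mice 1 to 5. The 4 older mice other than mouse 5 were above every younger mouse, and mouse 5 was at the 10-month level. The log2 fold change was 1.98 (standard error 0.23, adjusted p = 1.4e-07) with all mice and 2.22 (adjusted p = 1.6e-12) without mouse 5. Nt5c1a, the cytosolic nucleotidase that makes adenosine from AMP in heart muscle, had the same distribution: 2.30, 6.35, 1.85, 2.77 and 0.687 CPM at 10 months and 24.7, 23.8, 25.0, 25.7 and 2.57 CPM at 12 months. Its 7.14-fold increase (log2 fold change 2.84, standard error 0.38, adjusted p = 2.8e-06) became 3.12 on the log2 scale without mouse 5. Soga1, a regulator of autophagy, was at 13.4 to 19.0 CPM in the younger mice, at 34.4 to 50.5 CPM in 12-month mice 1 to 4 and at 19.0 CPM in mouse 5 (log2 fold change 1.28, adjusted p = 3.4e-06).

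In other genes mouse 5 lay above every 10-month mouse and below the other older mice, though in Irs1 only just above the former. Irs1, the insulin receptor substrate that links the receptor to PI3 kinase, was at 4.73, 13.2, 12.4, 9.95 and 7.42 CPM in the younger mice and at 45.6, 40.9, 31.6, 51.0 and 13.7 CPM in the older ones. The groups did not overlap, but mouse 5 (13.7 CPM) was close to the highest younger mouse (13.2 CPM). The increase was 3.84-fold (log2 fold change 1.94, standard error 0.25, adjusted p = 9.1e-07). Htt, which encodes huntingtin, was at 31.1 to 34.7 CPM against 52.4, 55.6, 54.6, 55.9 and 44.2 CPM (log2 fold change 0.68, standard error 0.09, adjusted p = 9.1e-07). Gon4l, a nuclear regulator of transcription, was at 16.5 to 25.4 CPM against 30.0 to 50.5 CPM, with the lowest of the older mice again mouse 5 (log2 fold change 0.98, adjusted p = 3.4e-06). With Hipk2, Nt5c1a and Soga1, these are the 6 genes with the lowest adjusted p among those that rose and are not predicted genes. The longest transcript had 7684 bases for Hipk2, 9144 for Irs1, 13215 for Htt, 7864 for Soga1, 7537 for Gon4l and 1220 for Nt5c1a. The median of all genes tested was 3248 bases. None of the 6 lost its call when any mouse was left out.

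**Figure D3:**
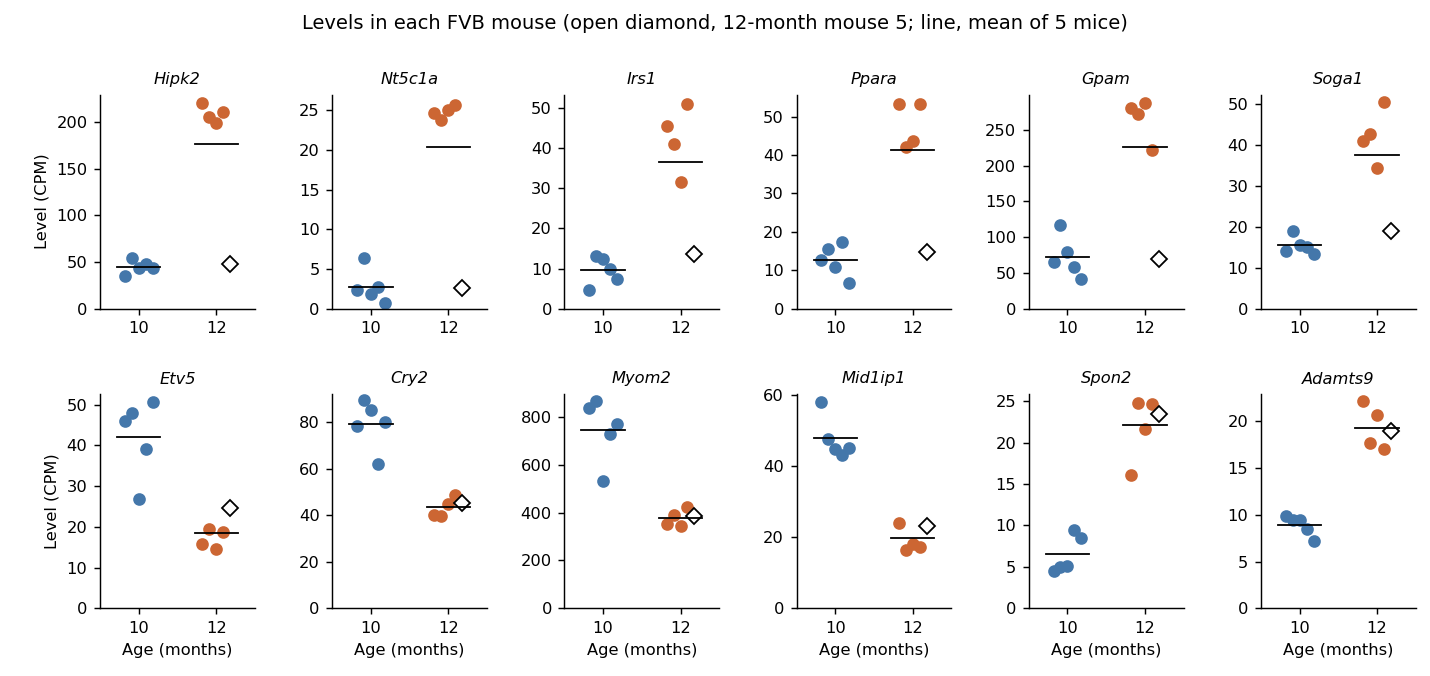
Level in CPM (vertical axis) of 12 genes in each FVB mouse by age in months (horizontal axis), with the mean of 5 mice as a line and 12-month mouse 5 as an open diamond. In the upper row mouse 5 lies at or near the 10-month mice (Hipk2, 48.2 CPM), and in the lower row, with Etv5 at 24.6 CPM as the nearest to the younger mice, it lies with the other older mice.

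These genes did not follow age in 1 direction. In FVB mice, Hipk2 was at 190 to 295 CPM at 4 months, 112 to 126 CPM at 8 months, 34.9 to 54.3 CPM at 10 months, 48.2 to 220 CPM at 12 months and 25.6 to 38.9 CPM at 14 months. The 10- and 14-month groups overlapped at a low level and 12-month mice 1 to 4 lay within the range of the 4-month mice. In Tgαq*44 mice Hipk2 was at 32.9 to 45.5 CPM at 10 months and at 157 to 219 CPM at 12 months, and the difference between the strains was -0.19 on the log2 scale (standard error 0.31, adjusted p = 0.9). Nt5c1a was at a mean of 29.0, 15.6, 2.79, 20.3 and 1.76 CPM in FVB mice of 4, 8, 10, 12 and 14 months. It rose from 1.51 ± 0.708 to 8.65 ± 1.92 CPM (SD, n = 5) between 10 and 12 months in Tgαq*44 mice. Irs1, at means of 28.7, 14.7, 9.53, 36.6 and 10.1 CPM in FVB mice of those ages, was likewise low at 10 and 14 months. Of the 750 genes called higher in FVB mice, 82.8% had a change above 0 in Tgαq*44 mice, and of the 435 called lower, 75.2% had one below 0. This held for 60.1% of all genes with a positive and 60.8% of all genes with a negative change in FVB mice. The 2 comparisons share no mice, and genes are not independent of each other.

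**Figure D4:**
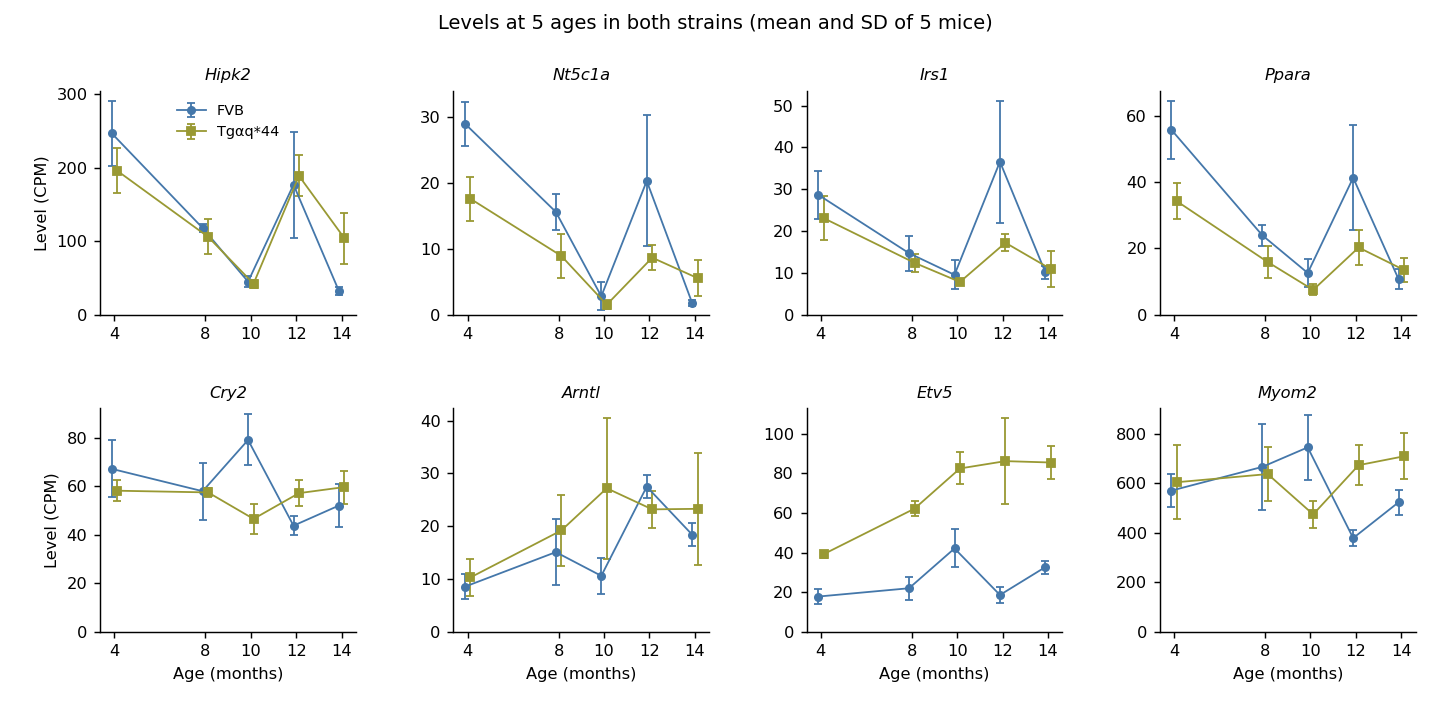
Mean level in CPM with SD of 5 mice (vertical axis) at 5 ages in months (horizontal axis) in FVB and Tgαq*44 mice for 8 genes. Hipk2, Nt5c1a, Irs1 and Ppara are low at 10 and 14 months and higher at 12 months in FVB mice, with a rise from 10 to 12 months in both strains. Cry2, Arntl, Etv5 and Myom2 change between these ages in FVB mice with a called difference between the strains.

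Some further genes had large increases with no overlap between the groups. Fam124b, a gene of little known function, rose from 0.161 to 0.608 CPM to 1.24 to 2.44 CPM (log2 fold change 2.29, adjusted p = 3.1e-05). Spon2, a secreted spondin that binds integrins, was at 4.53, 4.97, 5.15, 9.43 and 8.45 CPM in the younger mice and at 16.1, 24.8, 21.6, 24.7 and 23.5 CPM in the older ones, mouse 5 included (3.41-fold, log2 fold change 1.77, standard error 0.37, adjusted p = 0.0014). In Tgαq*44 mice it changed by -0.49, and the difference between the strains was 2.25 (adjusted p = 0.011). The somatostatin receptor Sstr3 (log2 fold change 1.43, adjusted p = 0.0037), the glutamate receptor auxiliary subunit Shisa6 (1.57, adjusted p = 0.0014) and the synaptic scaffold Dlgap1 (1.41, adjusted p = 0.00018) also rose, each at a mean below 5 CPM in both groups.

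Of 23 PPAR target genes tested, which act in the uptake and use of fatty acids, 15 had a positive and 8 a negative log2 fold change (median 0.09). Of the 23, 6 were called higher (Ppara, Angptl4, Ucp3, Cpt1a, Slc22a5 and Pdk4) and none lower, with the same counts without mouse 5. Of all genes, 4.96% were called higher with all mice and 6.95% without mouse 5. Ppara was at 12.6, 15.6, 10.8, 17.3 and 6.74 CPM in the younger mice and at 53.2, 42.1, 43.6, 53.4 and 14.7 CPM in the older ones. Mouse 5 lay within the 10-month range, and the mean was 3.29-fold higher (log2 fold change 1.72, standard error 0.25, adjusted p = 8e-06). Angptl4, an inhibitor of lipoprotein lipase, was at 1.15, 6.41, 6.35, 1.80 and 1.58 CPM against 15.6, 25.0, 18.3, 12.0 and 8.63 CPM, without overlap (4.58-fold, log2 fold change 2.20, standard error 0.47, adjusted p = 0.0017). Slc22a5, the carnitine transporter gene, rose by a log2 fold change of 0.35 (adjusted p = 0.022, lost without any one of 6 mice). Ucp3, an uncoupling protein of the inner mitochondrial membrane, was at 7.84 to 21.7 CPM against 27.4 to 54.5 CPM (log2 fold change 1.43, adjusted p = 0.0022). Pdk4, which restrains pyruvate dehydrogenase, was at 643, 633, 475, 91.0 and 629 CPM against 719, 1980, 1720, 1200 and 960 CPM (log2 fold change 1.41, adjusted p = 0.038). This call was lost without any one of 10-month mice 3, 4 and 5 or 12-month mice 2, 3 and 4.

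Of 32 fatty acid oxidation genes, 2 were called higher and 1 lower, about the shares of all genes (4.96% and 2.88%), and 21 of the 32 had a negative log2 fold change (median -0.10). Cpt1a, which couples long-chain fatty acids to carnitine for their entry into mitochondria, was at 26.8 to 34.9 CPM against 42.0 to 45.3 CPM in 12-month mice 1 to 4 and 30.7 CPM in mouse 5 (log2 fold change 0.46, adjusted p = 0.019). The call was lost without 10-month mouse 5, 12-month mouse 1 or 12-month mouse 2. The peroxisomal enzyme Ehhadh rose (log2 fold change 0.51, adjusted p = 0.048) and the acylcarnitine carrier Slc25a20 fell by 0.34 on the log2 scale (adjusted p = 0.049), calls lost without any one of 6 and 8 of the 10 mice. Among 18 lipogenesis genes, Gpam, which starts triglyceride synthesis, rose 3.13-fold from 41.6 to 117 CPM to 222 to 287 CPM in 12-month mice 1 to 4, with mouse 5 at 69.1 CPM (log2 fold change 1.64, adjusted p = 0.00015). The fatty acid synthase gene Fasn fell by 0.72 on the log2 scale (adjusted p = 0.027, lost without 10-month mouse 4 or any one of 12-month mice 1, 2 and 3). Mid1ip1, which promotes the activity of acetyl-CoA carboxylase, was at 58.2, 47.8, 45.0, 43.2 and 45.3 CPM against 24.0, 16.4, 18.2, 17.4 and 23.2 CPM, lower in every older mouse (2.41-fold, log2 fold change -1.27, standard error 0.17, adjusted p = 3.4e-06).

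Of 28 genes of glycolysis and glycogen, 3 were called higher and 4 lower with all mice, and 2 higher and 8 lower without mouse 5. Of all genes, 4.96% were called higher and 2.88% lower with all mice, and 6.95% and 4.85% without mouse 5. Pdk2, a further inhibitor of pyruvate dehydrogenase, was at 922, 1110, 1140, 878 and 1470 CPM at 10 months and at 494, 564, 466, 655 and 1020 CPM at 12 months. Mouse 5 was inside the range of the younger mice, and the log2 fold change was -0.78 (standard error 0.20, adjusted p = 0.0089, and 0.055 without 10-month mouse 5). The glycogen phosphorylase Pygm fell by 0.46 (adjusted p = 0.02) and the glycogen synthase Gys1 by 0.53 on the log2 scale (adjusted p = 0.034). Gys1 was at 187 to 259 CPM against 110 to 159 CPM in 12-month mice 1 to 4 and 272 CPM in mouse 5. The phosphofructokinase Pfkp rose by a log2 fold change of 0.35 (adjusted p = 0.038) and the regulatory enzyme Pfkfb1 by 0.56 (adjusted p = 0.039). The glucose transporter gene Slc2a1 fell by 0.41 (adjusted p = 0.049, lost without any one of 8 mice). The calls of Pygm, Gys1, Pfkp and Pfkfb1 were lost without any one of 3, 7, 8 and 7 of the 10 mice, 10-month mouse 5 among them each time. The 70 nuclear genes of oxidative phosphorylation held 2 members called lower (Ndufa8 and Ndufv1) and had a median log2 fold change of -0.105, with 56 of 70 below 0, and of 10 mitochondrially encoded genes tested none was called.

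Of 11 foetal and hypertrophic genes tested, 3 fell (Nppa, Ankrd1 and Myh7) and none rose, where 2.88% of all genes were called lower and 4.96% higher. Without mouse 5, 3 fell (Nppa, Ankrd1 and Acta1) and 1 rose (Mhrt, a non-coding RNA of the Myh7 locus). Nppa, which encodes atrial natriuretic peptide and is re-expressed in the stressed ventricle, was at 63.8, 113, 66.6, 70.0 and 245 CPM in the younger mice and at 24.2, 35.7, 16.9, 45.8 and 63.5 CPM in the older ones. The groups did not overlap, and the level fell (log2 fold change -1.59, standard error 0.36, adjusted p = 0.003). The call was lost without 10-month mouse 5, the highest of all (adjusted p = 0.056 from edgeR). Of the 7 atrial markers tested, Nppa and Nr2f2 were called, and the summed level of the list was 723 to 887 CPM at 10 and 754 to 934 CPM at 12 months. The part of atrial tissue was not tested beyond these values. Ankrd1, a stress-induced repeat protein of the sarcomeric I-band and nucleus, was at 2560, 1670, 1190, 2000 and 1960 CPM against 1230, 1250, 1140, 804 and 1250 CPM (log2 fold change -0.73, standard error 0.16, adjusted p = 0.0031). Myh7, the slow β-myosin heavy chain, fell by 0.62 (adjusted p = 0.022, lost without 10-month mouse 4, 12-month mouse 1 or 12-month mouse 5). In Tgαq*44 mice Myh7 changed by 0.73, and the strains differed by -1.34 (standard error 0.25, adjusted p = 0.002). Acta1, skeletal α-actin, was at 1070 to 3640 against 534 to 2830 CPM and passed the test only without mouse 5 (log2 fold change -0.58, adjusted p = 0.35, and -1.11, adjusted p = 0.021).

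Of 24 sarcomere genes, 2 rose and 4 fell, where 4.96% of all genes were called higher and 2.88% lower. Without 12-month mouse 5, 2 rose and 6 fell, where these shares were 6.95% and 4.85%. Myom2, an M-band protein, was at 834, 867, 532, 728 and 769 CPM in the younger and 352, 390, 345, 423 and 385 CPM in the older mice. It was 1.97-fold lower with no overlap (log2 fold change -0.98, standard error 0.15, adjusted p = 2.3e-05). Its close relative Myom1 moved the other way, from 443 to 576 CPM to 665 to 810 CPM in 12-month mice 1 to 4 and 483 CPM in mouse 5 (log2 fold change 0.49, adjusted p = 0.0079). Lmod2, which elongates thin filaments, fell by 0.51 without overlap (adjusted p = 0.0084). Synpo2l, a Z-disc protein, fell by 0.79 (adjusted p = 0.0072, and 0.059 without 10-month mouse 5). In it 12-month mouse 5 was at 451 CPM against 149 to 244 CPM in the other 4 older mice. The intermediate filament gene Des fell by 0.49 (adjusted p = 0.027) and the costameric gene Cmya5 rose by a log2 fold change of 0.37 (adjusted p = 0.041), calls lost without any one of 6 and 7 of the 10 mice. The strains differed in the change of Myom2 by -1.48 (standard error 0.21, adjusted p = 5.3e-05), Myom2 having changed by 0.50 in Tgαq*44 mice, and in that of Des by -0.82 (adjusted p = 0.028, lost without any one of 6 mice).

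Among 20 calcium handling genes, 2 were called higher and none lower, and 4 higher and none lower without 12-month mouse 5. Of all genes, 4.96% were called higher and 2.88% lower, and 6.95% and 4.85% without that mouse. The sodium-calcium exchanger Slc8a1 rose (34.4 to 69.4 CPM against 82.2 to 104 CPM in 12-month mice 1 to 4 and 56.8 CPM in mouse 5, log2 fold change 0.73, adjusted p = 0.0056). The L-type channel gene Cacna1c rose as well (log2 fold change 0.34, adjusted p = 0.027, lost without any one of 6 of the 10 mice). Of 21 genes of thyroid hormone and adrenergic signalling, 4 rose and 1 fell, and 6 rose and 2 fell without mouse 5. The phosphodiesterase Pde4d, which degrades cAMP, was at 15.3 to 26.0 CPM against 35.0 to 43.3 CPM in 12-month mice 1 to 4 and 19.5 CPM in mouse 5 (log2 fold change 0.75, adjusted p = 0.0029). The α1A-adrenergic receptor gene Adra1a rose by 0.72 (adjusted p = 0.0068) and the thyroid hormone receptor gene Thrb by 0.60 (adjusted p = 0.013, and 0.077 without 12-month mouse 1), in both of which mouse 5 lay below or within the 10-month range. Grk5, a receptor kinase, rose by 0.33 (adjusted p = 0.045, lost without any one of 8 of the 10 mice). Prkaca, the catalytic subunit of protein kinase A, fell by 0.50 (adjusted p = 0.012, lost without 10-month mouse 5 or 12-month mouse 1). Gnaq, the mouse gene of Gαq, was at 9.76 to 20.3 CPM against 15.0 to 28.7 CPM and did not pass the test (log2 fold change 0.48, adjusted p = 0.11), although it did without mouse 5 (0.59, adjusted p = 0.035).

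The extracellular matrix changed in single members. Of 40 collagens and interstitial matrix genes, 5 rose (Col5a3, Lum, Col14a1, Eln and Fbn1) and 1 fell (Fbln1), also without mouse 5, and the median log2 fold change was 0.05. Of all genes, 4.96% were called higher and 2.88% lower (6.95% and 4.85% without mouse 5). Col5a3, a chain of the fibril-regulating collagen V, was at 11.4, 13.8, 14.3, 13.5 and 22.6 CPM in the younger mice and at 32.6, 34.8, 27.9, 44.2 and 25.7 CPM in the older ones. The groups did not overlap (2.19-fold, log2 fold change 1.13, standard error 0.23, adjusted p = 0.00097). The proteoglycan lumican (Lum) rose from 176 to 231 CPM to 236 to 281 CPM (log2 fold change 0.44, adjusted p = 0.0061), and its change differed between the strains by 0.74 (adjusted p = 0.0059). Col14a1, a collagen on the surface of fibrils, rose by 0.63 (adjusted p = 0.0068). Elastin (Eln) rose by 0.73 (adjusted p = 0.014, lost without 10-month mouse 1 or 12-month mouse 4) and fibrillin-1 (Fbn1) by 0.55 (adjusted p = 0.023, lost without 10-month mouse 5 or 12-month mouse 3). Fibulin-1 (Fbln1) fell by 0.64 (adjusted p = 0.028, lost without any one of 5 mice). Lum was the 1 of 8 fibroblast markers that was called, the summed level of which was 2050 to 2870 CPM at 10 and 2290 to 2640 CPM at 12 months, and the 8 markers of activated fibroblasts held no called member. Itga11, the collagen receptor integrin α11, fell by 0.67 (adjusted p = 0.026, lost without any one of 5 mice), while Cilp and Timp1 did not pass the test (log2 fold change 0.47 and 0.15, adjusted p = 0.39 and 0.87).

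Of 19 matrix proteases and inhibitors tested, 4 were called higher (Adamts9, Adamts4, Adam17 and Adamts15) and none lower, and 7 had a negative log2 fold change (median of the list 0.12). Without mouse 5, 4 were called higher and 1, Mmp11, lower. Of all genes, 4.96% were called higher and 2.88% lower (6.95% and 4.85% without mouse 5). Adamts9, an aggrecanase and versicanase, was at 9.87, 9.46, 9.41, 8.45 and 7.22 CPM in the younger mice and at 22.1, 17.6, 20.6, 17.0 and 18.9 CPM in the older mice. All of the latter were above every younger mouse (2.16-fold, log2 fold change 1.11, standard error 0.17, adjusted p = 2.2e-05). Adamts4 was at 0 to 0.643 CPM against 1.08 to 2.55 CPM (log2 fold change 2.13, adjusted p = 0.0036), with 10-month mouse 1 at 0. Adam17, the sheddase of TNF, rose by 0.39 without overlap (adjusted p = 0.015, lost without 10-month mouse 5 or 12-month mouse 1) and Adamts15 by 0.70 (adjusted p = 0.043, lost without any one of 6 mice).

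Among 31 genes of TGF-β and BMP signalling, 2 rose and 4 fell, where 4.96% of all genes were called higher and 2.88% lower. Without 12-month mouse 5, 2 rose and 6 fell, where these shares were 6.95% and 4.85%. The ligand genes Bmp6 and Bmp4 fell. Bmp6 was at 48.5, 70.5, 63.1, 58.1 and 67.8 CPM in the younger and 40.3, 43.8, 42.4, 46.6 and 41.2 CPM in the older mice (log2 fold change -0.52, standard error 0.11, adjusted p = 0.0013). Bmp4 was at 11.0 to 20.8 against 8.31 to 12.2 CPM (log2 fold change -0.62, adjusted p = 0.002). Ctgf, a matricellular target of TGF-β and mechanical load, fell by 0.91 (adjusted p = 0.0062, and 0.07 without 10-month mouse 5), and Ltbp4, which holds latent TGF-β in the matrix, by 0.73 (adjusted p = 0.025, lost without any one of 5 mice). Inhbb, the activin βB subunit gene, rose from 0.27 to 1.05 CPM to 0.917 to 2.36 CPM (log2 fold change 1.40, adjusted p = 0.0073) and the BMP target Id2 by 0.41 (adjusted p = 0.049, lost without any one of 8 mice). The strains differed in the change of Ctgf by -1.65 (adjusted p = 0.0023), of Bmp6 by -0.84 (adjusted p = 0.0014) and of Bmp4 by -0.80 (adjusted p = 0.016, lost without 10-month mouse 2).

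Etv5, an ETS factor downstream of FGF and ERK signalling, had the lowest adjusted p of the genes that fell. It was at 45.9, 47.9, 26.8, 39.0 and 50.7 CPM in the younger mice and at 15.7, 19.4, 14.5, 18.7 and 24.6 CPM in the older ones, without overlap (2.27-fold lower, log2 fold change -1.18, standard error 0.16, adjusted p = 1.8e-06). Cd200, a surface ligand that restrains myeloid cells, was at 48.8 to 64.7 against 21.3 to 46.3 CPM (log2 fold change -0.85, adjusted p = 1.5e-05). The phospholipid transfer protein gene Pltp was at 65.2 to 102 against 22.5 to 56.8 CPM (log2 fold change -1.19, adjusted p = 5e-05) and the aldehyde dehydrogenase gene Aldh7a1 was at 20.9 to 26.7 against 13.9 to 19.6 CPM (log2 fold change -0.61, adjusted p = 4.1e-05). Kiss1r, the kisspeptin receptor gene, fell by 1.32 (adjusted p = 0.018, lost without 10-month mouse 1 or 12-month mouse 2) and Lingo1, a Nogo receptor partner, by 1.49 (adjusted p = 0.0043). Cyp26b1, which degrades retinoic acid, was named after its values were seen. It was at 27.4, 51.9, 27.4, 84.8 and 132 CPM in the younger mice and at 4.16, 3.94, 3.76, 3.73 and 28.0 CPM in the older ones. Mouse 5 again lay with the 10-month mice (7.54-fold lower in the mean, log2 fold change -2.91, standard error 0.47, adjusted p = 5e-05, and -4.05 without mouse 5). Its level in 14-month FVB mice was as low, at 3.43 to 8.93 CPM.

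Genes of antigen presentation and of the immune system were lower in few members. Of 21 MHC genes tested, 6 fell (Tap2, Tapbp, H2-DMa, H2-Ab1, H2-T23 and Cd74) and none rose, with a median log2 fold change of -0.59, where 2.88% of all genes were called lower. Without mouse 5, 3 fell (Tap2, Tapbp and H2-DMa), where this held for 4.85% of all genes. Tap2, a subunit of the peptide transporter, was at 14.3, 8.86, 12.1, 13.4 and 8.66 CPM in the younger and 5.87, 6.10, 6.61, 7.59 and 8.46 CPM in the older mice (log2 fold change -0.73, standard error 0.18, adjusted p = 0.0077). It kept its call with any mouse left out. Tapbp, which loads class I molecules, fell by 0.61 (adjusted p = 0.021, lost without 10-month mouse 3 or 12-month mouse 3). H2-DMa, which loads class II molecules, fell by 1.0 on the log2 scale (adjusted p = 0.023, lost without 10-month mouse 1, 10-month mouse 4 or 12-month mouse 4). The calls of H2-Ab1, H2-T23 and Cd74 (adjusted p = 0.03, 0.039 and 0.039) were lost without any one of 5, 7 and 7 mice, 12-month mouse 5 among them. Macrophage markers, summed, were at 223 to 305 CPM at 10 and 241 to 265 CPM at 12 months and those of dendritic cells at 29.4 to 33.7 and 30.0 to 40.3 CPM, and neither list held a called member. B cell and plasma cell markers were at 17.8 to 37.4 against 12.6 to 21.8 CPM and natural killer cell markers at 2.4 to 4.8 against 0.458 to 2.78 CPM, with all 3 of the latter tested below 0 in log2 fold change (median -0.91) and none called in either list. The part of these cells in the levels of MHC genes was not tested. In whole tissue, fewer cells of a type and less RNA per cell cannot be told apart.

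Of 40 interferon response genes tested, 37 had a log2 fold change below 0, but only Psmb8 and Irf7 were called (log2 fold change -0.88 and -0.76, adjusted p = 0.028 and 0.035), where 2.88% of all genes were called lower. These calls were lost without any one of 6 and 7 mice, and the list's summed level overlapped, at 301 to 1030 against 254 to 536 CPM. Of 28 cytokine and chemokine genes, 1 was called higher and 2 lower, where 4.96% of all genes were called higher and 2.88% lower. Il33, an alarmin, fell from 7.79 to 9.12 CPM to 4.26 to 5.56 CPM (log2 fold change -0.80, standard error 0.21, adjusted p = 0.0097). In Tgαq*44 mice Il33 changed by 0.71, and the strains differed by -1.51 (adjusted p = 0.002). The eosinophil chemokine gene Ccl11 fell by 0.93 (adjusted p = 0.017, lost without 10-month mouse 1 or 12-month mouse 1). Cxcl12, which attracts CXCR4+ cells, rose from 304 to 539 CPM to 552 to 602 CPM (log2 fold change 0.56, adjusted p = 0.023, lost without any one of 10-month mice 1 and 5 and 12-month mouse 2). A further 3 immune genes at low levels fell without overlap between the groups. They were Il2ra, the α chain of the interleukin-2 receptor (3.74 to 5.27 against 1.57 to 2.37 CPM, log2 fold change -1.21, adjusted p = 0.00016), the β-glucan receptor gene Clec7a (2.61 to 4.80 against 0.917 to 1.71 CPM, -1.43, adjusted p = 0.0013) and Cd247, the ζ chain of the T cell receptor complex (0.756 to 1.80 against 0.327 to 0.664 CPM, -1.58, adjusted p = 0.0075). Of 7 T cell markers tested none was called, and their summed level was 5.03 to 7.03 CPM against 4.12 to 6.97 CPM.

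Immediate early genes, which are transcribed within minutes of a stimulus, fell in 5 of 30 members tested (Ctgf, Jun, Fos, Nr4a1 and Zfp36), where 2.88% of all genes were called lower. Of the 30, 27 had a negative log2 fold change. The groups overlapped in all 5. Jun was at 52.6, 89.6, 101, 88.5 and 124 CPM in the younger and 49.1, 64.2, 53.1, 69.1 and 57.8 CPM in the older mice (log2 fold change -0.64, standard error 0.18, adjusted p = 0.017). Fos was at 0.473 to 11.4 against 0.913 to 3.27 CPM (log2 fold change -1.52, adjusted p = 0.04). All 5 lost their call without 10-month mouse 5, and Fos and Nr4a1 also without 12-month mouse 5. Without the latter mouse, 7 members were called lower (Ctgf, Jun, Zfp36, Ier3, Cyr61, Egr1 and Myc) and 1 higher (Fosl2), where 4.85% and 6.95% of all genes were. Egr2 and Egr3 did not pass the test (log2 fold change -1.0 and -0.80, adjusted p = 0.22 and 0.23). Of 22 glucocorticoid-responsive genes, Angptl4 and Pdk4 rose and Per1 and Nfkbia fell, where 4.96% of all genes were called higher and 2.88% lower. Nfkbia fell by 0.65 (adjusted p = 0.041, lost without any one of 7 mice). The stress cytokine gene Gdf15 (-0.53, adjusted p = 0.49) and the cell cycle inhibitor gene Cdkn1a (0.73, adjusted p = 0.17) overlapped between the groups and were not called. Sfrp2, a Wnt modulator, was at 1.12 to 1.65 against 0.653 to 1.31 CPM (-0.38, adjusted p = 0.56).

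Protein quality control showed changes in single genes. The members called in the lists of this paragraph are to be read beside 4.96% of all genes called higher and 2.88% lower. Without 12-month mouse 5, these shares were 6.95% and 4.85%. Of 26 heat shock proteins and chaperones, Hsph1, a nucleotide exchange factor of HSP70, rose from 18.3 to 25.9 CPM to 30.9 to 38.6 CPM (log2 fold change 0.71, adjusted p = 0.014). Without mouse 5, 1 member of this list was called higher (Hsph1) and 3 lower (Bag3, Hspb6 and Hsp90ab1). The co-chaperone Stip1 rose by 0.39 (adjusted p = 0.028, lost without any one of 4 mice, 12-month mouse 5 among them). Of 30 genes of the unfolded protein response and ATF4, Herpud1, which acts in the degradation of proteins of the endoplasmic reticulum, was at 369 to 500 against 192 to 314 CPM (log2 fold change -0.72, adjusted p = 0.00046). The mitochondrial serine enzyme Shmt2 fell by 0.59 (adjusted p = 0.012, lost without any one of 3 mice). Of 17 atrophy and FOXO target genes, Fbxo40, a muscle ubiquitin ligase that targets IRS1, rose from 304 to 316 CPM to 381 to 441 CPM (log2 fold change 0.40, standard error 0.09, adjusted p = 0.0033). The CBP-binding factor Cited2 fell by 0.76 (adjusted p = 0.0037). The autophagy genes Sqstm1 and Map1lc3b also fell, Sqstm1 by 0.53 (adjusted p = 0.0077, and 0.057 without 10-month mouse 5) and Map1lc3b by 0.35 (adjusted p = 0.03, lost without any one of 5 mice). Of 32 cell cycle genes, 28 had a positive and 4 a negative log2 fold change, with a median of 0.412 against -0.006 for all genes. Their summed level was 184 to 228 CPM at 10 and 229 to 295 CPM at 12 months, and 11 members had means below 1 CPM. With and without mouse 5, 2 were called higher and none lower, where 4.96% of all genes were called higher with all mice. Ccnd2, a D-type cyclin, rose by 0.65 (adjusted p = 0.0021, with mouse 5 at 56.9 CPM, below all others). The replication helicase gene Mcm5 rose from 0.724 to 1.62 CPM to 1.93 to 3.02 CPM (log2 fold change 1.03, adjusted p = 0.006). Of 61 ribosomal protein genes, 58 had a negative log2 fold change and none was called, with a median of -0.21, and 6 were called lower without mouse 5.

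The change from 10 to 12 months differed between the strains for 191 genes, 98 of which were also called in FVB mice. Besides the clock genes, Etv5 (difference -1.24, standard error 0.21, adjusted p = 0.00062), Cyp26b1 (-4.29, adjusted p = 2e-04) and Myom2 fell in FVB mice and had log2 fold changes of 0.06, 1.37 and 0.50 in Tgαq*44 mice. Rhobtb1 (-1.56, adjusted p = 2e-04), and Kalrn, a guanine nucleotide exchange factor gene (-0.81, adjusted p = 2e-04), also fell in FVB mice, by 0.69 and 0.53, and had log2 fold changes of 0.88 and 0.28 in Tgαq*44 mice. Itgb6, the integrin β6 gene, differed by 2.43 (adjusted p = 5.3e-05). It fell by 1.83 in Tgαq*44 mice and did not pass the test in FVB mice (log2 fold change 0.61, adjusted p = 0.093). Cyp26b1, Rhobtb1, Kalrn and Itgb6 were named after their values were seen, and each of the 6 differences remained called when any 1 of the 10 FVB mice was left out. Besides those of Per3, Hlf, Des and Bmp4 given above, the differences of named genes that did not remain were those of Mid1ip1 (-0.92, adjusted p = 0.047), Stip1 (0.62, adjusted p = 0.04) and Adamts9 (0.88, adjusted p = 0.045), each without any one of 6 or 7 mice. Nor did those of Il2ra (-1.23, adjusted p = 0.024) and Hsph1 (1.10, adjusted p = 0.025), remain without 10-month mouse 2. The counts of genes with a strain difference fell from 85 and 106 to 52 and 69 without 10-month mouse 2.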

How the data were processed

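Of the 50 libraries of the study, the 10 of FVB mice aged 10 and 12 months are described, and the counts of all 50 entered the fit. Total RNA was polyA-selected, prepared with the Lexogen Sense mRNA-Seq kit and sequenced on a NextSeq in several runs. Read trimming (Cutadapt), quality control (FastQC), alignment to the mouse genome GRCm38.p6 (STAR) and gene counting (HTSeq) were done by the authors, who deposited raw counts. Neither versions nor the strand setting are stated, so that overlapping and antisense genes are uncertain. The authors' own tables of fold changes, p-values and processes were not used.

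Of 54532 genes, 15129 that exceeded 0.5 CPM in more than 3 mice of any group were tested with edgeR 4.0.16 (R 4.3.3), TMM factors and a quasi-likelihood F-test in 1 model of the 10 groups, with Benjamini-Hochberg adjustment over all genes tested. Standard errors were obtained by dividing the log2 fold change by the square root of F. The strain difference is the FVB change less the Tgαq*44 change. The script was tested on simulated counts. Alternatives used limma 3.58.1 (voom), DESeq2 1.42.0, RLE factors, other filters, fewer libraries, no mitochondrial genes, each of the 10 mice left out, a replicate block of the mouse number and, added after the data were seen, offsets for GC content and length of the longest GENCODE transcript (15118 genes) and other tools without 12-month mouse 5. Tables and figures used Python 3.11.15, pandas 2.3.3, scipy 1.17.1 and matplotlib 3.10.9. The 2 most alike libraries of each age differed by more than counting noise (chi-square per degree of freedom of 10.3 and 10.1 at the lowest), and all were counted.

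Named genes are, per direction, the 10 DEGs with the largest change, over 1 CPM in either group and no overlap, the 6 genes with the lowest adjusted p, up to 5 called members of each of 22 lists, the ageing genes of the study and Gnaq, with predicted genes counted but not named. Npas2, Csnk1d, Per2, Clock, Nr1d1, Cyp26b1, Itgb6, Rhobtb1, Kalrn, Cmya5, Cd74, Slc2a1, Id2, Fbln1 and Acta1, and genes called only without 12-month mouse 5 or given under other observations, were named after their values were seen. The members and the 54 gene lists were chosen with earlier results of these data known. Of these lists, 20 held no called member (16 of cell markers and 4 of pathways), which include those of mitochondrially encoded, ribosomal protein, complement and antioxidant genes. Without 12-month mouse 5, 6 ribosomal protein, 3 antioxidant (Sod3, Gstm1 and Prdx6) and 1 complement gene (C5ar1) were called lower, where 4.85% of all genes were. Some genes are not reported here.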

Additional observations from a re-analysis of the deposited data

Results flagged for a closer look

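The genes flagged here are named genes, which were chosen by their values, and Nr1d1, Cyp26b1 and Acta1 were named after these were seen. The chance rate of about 1 in 20 groups therefore cannot be set against the counts. Of 244 groups of 5 mice to which Dixon's test could be applied, 20 held a mouse that stood apart, and 9 of the 20 were 12-month mouse 5. That mouse was low in Hipk2 (48.2 CPM), Nt5c1a (2.57 CPM), Shisa6 (1.91 CPM), Col14a1 (23.6 CPM), Cacna1c (402 CPM) and Cpt1a (30.7 CPM) and high in Nr1d1 (232 CPM), Cyp26b1 (28.0 CPM) and Acta1 (2830 CPM). Among the other 12-month mice, mouse 4 stood apart in Nr4a1 (71.0 CPM), Lum (236 CPM) and Ankrd1 (804 CPM) and mouse 3 in Tapbp (48.7 CPM). Among the 10-month mice, mouse 5 was high in Nppa (245 CPM), Col5a3 (22.6 CPM) and Lmod2 (1080 CPM), mouse 4 in Fbn1 (63.4 CPM) and Fasn (117 CPM), and mouse 2 was low in Stip1 (87.4 CPM) and mouse 1 in Slc2a1 (19.5 CPM).

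The change from 10 to 12 months differed between the strains, by edgeR's test of the interaction, for 25 named genes. The FVB change was above that in Tgαq*44 mice by 2.43 (log2) for Itgb6, 2.25 for Spon2, 1.74 for Npas2, 1.6 for Arntl, 1.10 for Hsph1, 0.88 for Adamts9, 0.74 for Lum and 0.62 for Stip1. It was below it, with a difference of -4.29 for Cyp26b1, -1.65 for Ctgf, -1.56 for Rhobtb1, -1.51 for Il33, -1.48 for Myom2, -1.34 for Myh7, -1.24 for Etv5 and Per3, -1.23 for Il2ra, -1.15 for Cry2, -1.08 for Tef, -1.06 for Hlf, -0.92 for Mid1ip1, -0.84 for Bmp6, -0.82 for Des, -0.81 for Kalrn and -0.80 for Bmp4.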

How the results depend on the processing

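No result reversed under any alternative that was run. A fit of the 10 mice alone gave 95 DEGs higher and called 335 genes higher and 198 lower, and a fit of the 25 FVB mice called 231 lower. With 1 mouse left out, DEGs numbered 97 to 231 higher and 38 to 80 lower, calls 486 to 1051 higher and 225 to 734 lower, and strain differences 51 to 106 above and 65 to 123 below. The lowest counts came without 12-month mouse 1 for higher DEGs and both counts of calls, and without 12-month mouse 3 for lower DEGs, and the highest of these 4 without 12-month mouse 5. Without mouse 5, limma-voom gave 254 and 71 DEGs and 1086 and 718 calls, and DESeq2 gave 221 and 88 DEGs, 1053 and 884 calls and 155 and 185 strain differences. DESeq2 with all mice called 136 and 163 strain differences. Offsets for GC content and length raised these to 215 and 230. The other counts stayed within 1.5 times the reported ones, and the causes were not tested.

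The mouse numbers are shared by the age groups but no source says that they mark a litter or batch. Deviations of same-numbered 10- and 12-month mice correlated at 0.28, 0.10, -0.17, -0.32 and 0.25 (other pairs -0.43 to 0.36), and 3 of 10 mice correlated best with their own number. Over all groups of the study, same-numbered mice correlated at a mean of 0.10, above 0.1 in 112 of 225 pairs. Since not every pair of the 2 groups was above 0.1, the mice were treated as unpaired, and what the number marks was not tested. With the number as a replicate block, 160 DEGs were higher and 54 lower, 898 and 692 genes were called, and 140 and 178 strain differences. The block with offsets for GC content and length gave 157 and 49 DEGs, 905 and 918 calls and 305 and 317 strain differences.

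Of the 110 named genes that were called, 0 lost their call under DESeq2 or the block, 9 did so under limma-voom, 14 with the offsets, 15 without a filter on low counts, 27 in the fit of 25 mice and 38 in that of 10 mice, and 10 to 37 with 1 mouse left out (10 without 12-month mouse 5 and 37 without 10-month mouse 5). Depth limits the genes under about 1 CPM, which is 12.4 to 17.6 counts per library.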

Other observations

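Several gene groups outside the comparisons above held single called members, given as mean ± SD (n = 5) with adjusted p from edgeR. Those called with all mice were also called without 12-month mouse 5. Whether they kept their calls without each of the other mice is not given. Kdr, the main VEGF receptor of endothelial cells, rose without overlap between the groups from 112.6 ± 11.6 to 180.9 ± 15.2 CPM (log2 fold change 0.69, adjusted p = 0.00071). It was the 1 called gene of 10 endothelial markers, whose summed level was 1770 to 2000 CPM at 10 and 1680 to 2090 CPM at 12 months. Of these markers, 8 had a negative log2 fold change (median of the list -0.08), and without 12-month mouse 5 Cdh5 was also called, as lower. Vegfa, the ligand of the Kdr product, rose from 293.6 ± 29.2 to 393.5 ± 97.4 CPM (log2 fold change 0.42, adjusted p = 0.037). Epas1, the hypoxia-inducible factor 2α gene, fell by 0.40 on the log2 scale (adjusted p = 0.028). Of 19 hypoxia response genes, 2 rose and 2 fell, where 4.96% of all genes were called higher and 2.88% lower.

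Of 17 basement membrane genes, 2 rose and 1 fell, where 4.96% of all genes were called higher and 2.88% lower. The laminin chain genes Lamb1 (log2 fold change 0.50, adjusted p = 0.019) and Lama4 (0.31, adjusted p = 0.039) rose and Lamb2 fell by 0.42 (adjusted p = 0.026). The leucine catabolic enzyme gene Ivd fell by 0.27 (adjusted p = 0.036). Anpep, an aminopeptidase that acts on angiotensin peptides, fell by 0.69 (adjusted p = 0.0061) and the p53 target Aen rose by a log2 fold change of 0.45 (adjusted p = 0.033).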
